A study of Mus musculus with 10 samples.

Results

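Expression of 10 genes of Kupffer cells, the macrophages resident in liver, and of macrophages at large was followed across 5 tissues and 2 ages of male ICR mice, an outbred stock. They were chosen by name, with earlier results of these data known, as Marco, C1qa, C1qb, C1qc, Lyz2, Cd68, Clec4f, Timd4, Adgre1 and Msr1. The array annotation assigned 16 probe sets to 1 of these genes and to no other, out of 34958 probe sets that named a single gene and 45101 in all, and 0 further probe sets named a member beside another gene. Each of the 10 genes was represented by its brightest probe set, as were all 18194 genes of the array.

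The groups were the distal colon, ileum, jejunum, spleen and liver taken at 4 months (6 mice) and at 28 months (9 mice). No treatment is named for either age. All mice ate the AIN-93 diet and were housed singly and free of specific pathogens, and the older animals were obtained when 8 months old and the younger when 2 months old. RNA was extracted per mouse and pooled in equal amounts, and a single Affymetrix mouse genome array was used per pool, so no group had a replicate and the spread between mice is unknown. The number of arrays limits the precision, and in pooled tissue RNA a change in the share of macrophages and a change in RNA per macrophage cannot be told apart.

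Signals are given in units after each array was scaled to a trimmed mean of 500 units, and a floor of 111 units, the median of all signals, marked the level below which a gene was taken as not measured. Genes that define liver and intestine were high in the tissues labelled with them. No such gene is given for spleen or for single intestinal segments. Alb, serum albumin, read 51037 units in the younger liver, 50608 in the older one and at most 175 units elsewhere, and Epcam, an epithelial adhesion protein, read 17942 to 25856 units in intestine and at most 428 units in liver and spleen. Csf1r, the receptor through which macrophages receive their survival signal, read 3023 to 20847 units on the 10 arrays. In the labels, the arrays of the 3 older intestinal segments carry another run of numbers and another form of title than the remaining 7, so in the intestine that division and age cannot be told apart. Liver and spleen had both ages in the same run of numbers.

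Kupffer cells line the liver sinusoids and clear bacteria, dying cells and immune complexes from portal blood. Red pulp and marginal zone macrophages filter blood in the spleen, and macrophages of the intestinal wall sit beneath the epithelium and among the muscle layers. The genes studied here encode parts of that clearance machinery. C1qa, C1qb and C1qc make the chains of C1q, which tags targets and opens the classical complement pathway. Marco and Msr1 are class A scavenger receptors, Clec4f and Timd4 bind glycans and phosphatidylserine, Adgre1 is the F4/80 antigen, and Cd68 and Lyz2 encode a lysosomal membrane glycoprotein and lysozyme M.

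The 10 genes differed widely between tissues. In 1 limma fit of all 10 arrays with tissue and age as terms, 8 of the 10 genes were lower in liver than in spleen and 2 were higher (Benjamini-Hochberg adjusted p under 0.05 and 2-fold or more), where 20.7% and 16.3% of the 13608 genes tested were called lower and higher. Against the intestine, taken as the mean of its 3 segments, 5 genes were higher in liver and 1 was lower, with a background of 11.4% and 18.3%. In spleen against intestine 8 genes were higher and 0 lower, with a background of 14.3% and 18%. The median log2 difference of the 10 genes was -1.55 for liver minus spleen, 0.58 for liver minus intestine and 1.63 for spleen minus intestine, where the medians of all genes tested were -0.05, -0.10 and -0.00. The 2 ages of a tissue stand in for replicates in this fit, so its p-values measure how far tissues differ beyond the spread that is left after a shared age term.

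**Figure D1:**
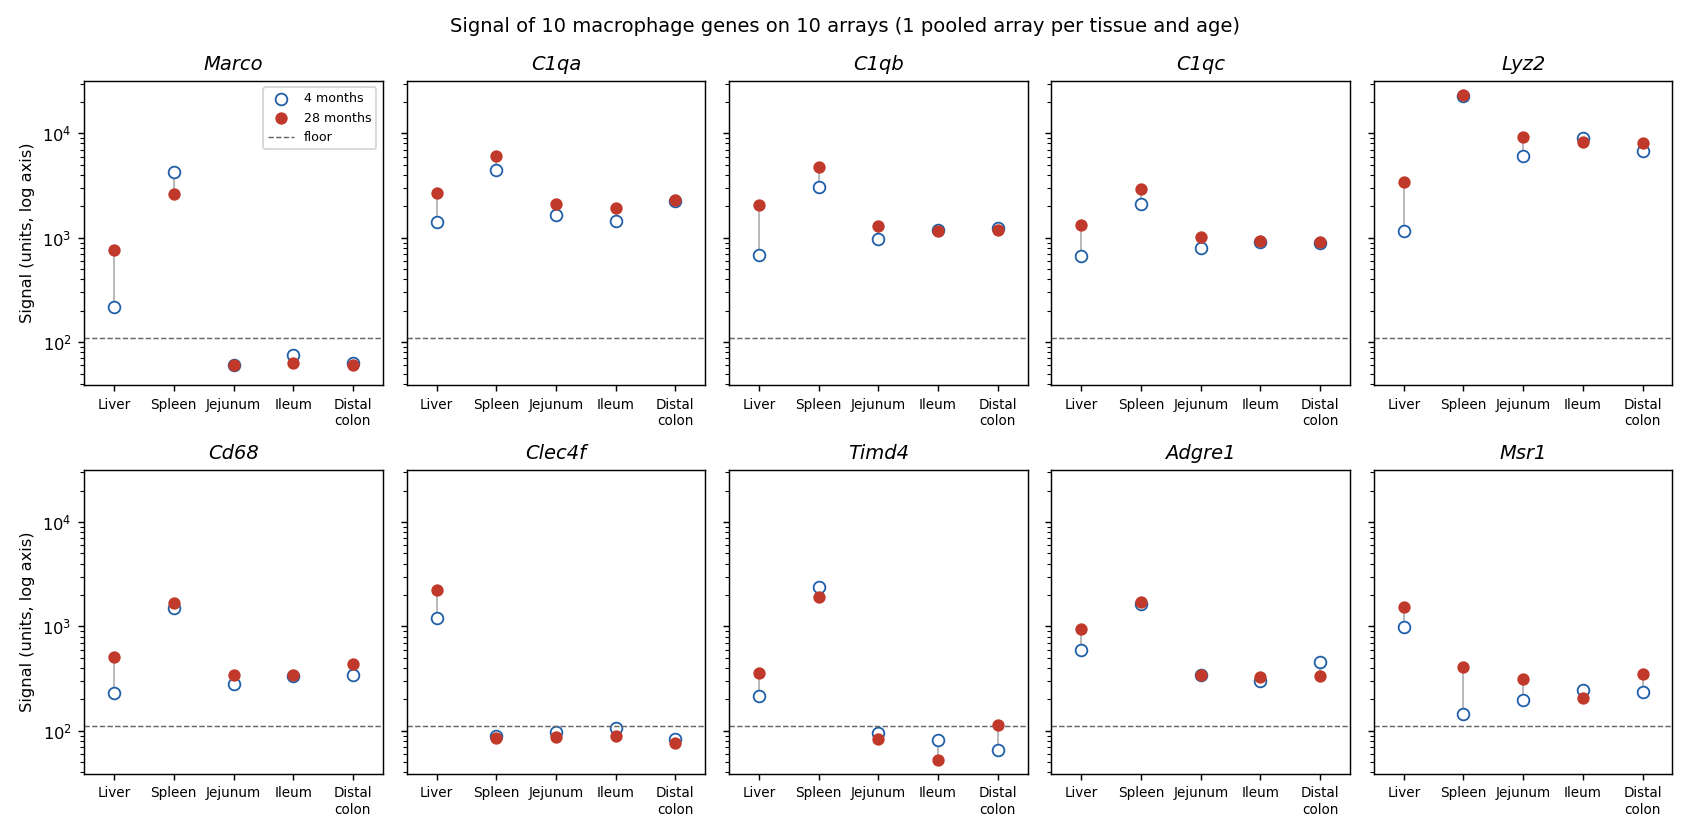
Signal of each gene on the 10 arrays, on a log axis, with an open circle for 4 months, a filled circle for 28 months and a dashed line at the floor of 111 units. Each point is 1 array of pooled RNA. Clec4f stood above the floor in liver alone (1208 and 2211 units), Marco in liver and spleen, and the C1q genes on all 10 arrays.

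The complement subunits were high in every tissue and highest in spleen. C1qa read 1426 units in liver at 4 months and 2711 at 28 months, against 4467 and 6045 units in spleen. In jejunum it read 1652 and 2094 units, in ileum 1442 and 1907, and in distal colon 2260 and 2300. Spleen lay above the other tissues at both ages, while the ranges of the 2 ages overlapped between neighbours in the order distal colon, liver, jejunum and ileum. C1qb read 686 and 2047 units in liver and 3074 and 4752 in spleen, with 980 to 1285 units on the 6 intestinal arrays. C1qc read 668 and 1330 units in liver and 2099 and 2951 in spleen, with 794 to 1024 units in intestine. For each of the 3 genes the liver of 4 months was the lowest of the 10 arrays.

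In the fit over tissues C1qa, C1qb and C1qc were lower in liver than in spleen by -1.40 ± 0.20, -1.69 ± 0.36 and -1.40 ± 0.23 on the log2 scale (SE; limma adjusted p = 0.000433, 0.00391 and 0.00106). Liver and intestine differed by 0.04 ± 0.16, 0.02 ± 0.29 and 0.06 ± 0.19, less than their SE (limma adjusted p = 0.852, 0.96 and 0.805). That pooled value joins a liver at 4 months below all 6 intestinal arrays with a liver at 28 months above all 6, for each of the 3 genes. Over the 10 arrays C1qb and C1qc had a Pearson r of 0.99 with each other, a description in which the points share tissues and arrays.

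C1qb, C1qc and C1qa are neighbours in that order on the mouse chromosome in the RefSeq table. The reference held promoters, 250 bases before to 50 after the start, for 7 of the 10 genes, and those of the adjacent pair C1qb and C1qc, which moved together, are shown with that of Marco, which moved apart from them in spleen. The windows are chr4:136886151-136886450 for C1qb, chr4:136892865-136893164 for C1qc and chr1:120504975-120505274 for Marco, all on the minus strand of GRCm38.p6 (RefSeq), written 5′ to 3′ along the gene. Capitals mark GAGGAA or its reverse complement TTCCTC, letters found within many binding sites of the myeloid factor PU.1.
C1qb: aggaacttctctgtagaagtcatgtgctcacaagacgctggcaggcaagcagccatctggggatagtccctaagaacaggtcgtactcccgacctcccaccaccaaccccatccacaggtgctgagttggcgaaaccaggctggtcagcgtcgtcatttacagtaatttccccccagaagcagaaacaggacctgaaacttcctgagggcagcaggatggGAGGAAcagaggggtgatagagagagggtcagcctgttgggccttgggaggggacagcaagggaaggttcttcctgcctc
C1qc: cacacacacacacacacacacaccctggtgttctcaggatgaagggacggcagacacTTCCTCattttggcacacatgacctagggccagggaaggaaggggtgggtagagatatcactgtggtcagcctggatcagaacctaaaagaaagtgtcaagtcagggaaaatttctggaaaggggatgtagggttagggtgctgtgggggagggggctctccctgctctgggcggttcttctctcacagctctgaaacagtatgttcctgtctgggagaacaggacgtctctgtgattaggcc
Marco: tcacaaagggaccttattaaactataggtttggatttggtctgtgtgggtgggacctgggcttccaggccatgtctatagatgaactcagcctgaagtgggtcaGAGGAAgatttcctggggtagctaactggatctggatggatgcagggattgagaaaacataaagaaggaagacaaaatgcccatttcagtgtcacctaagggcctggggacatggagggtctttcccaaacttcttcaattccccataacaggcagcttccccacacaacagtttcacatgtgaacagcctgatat
These letters, searched on both strands, were in 4 of the 7 promoters (C1qb, C1qc, Marco and Cd68) and in 28.3% of all 32851 promoters of that length in the table. The promoters of Lyz2, Clec4f and Timd4 did not hold them in this window. A match is a description of the sequence and not a binding site.

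The 2 scavenger receptors differed in opposite directions between liver and spleen. Marco, which binds bacteria and particles on marginal zone macrophages and Kupffer cells, read 215 units in liver at 4 months and 765 at 28 months, against 4302 and 2646 units in spleen. All 6 intestinal arrays read 59.8 to 74.7 units, below the floor. Spleen was at least 30.5-fold and liver at least 3.66-fold above the intestine, which was taken at the floor. Liver minus spleen was -3.06 ± 0.51 (SE; limma adjusted p = 0.00109), and this gap was -4.32 at 4 months and -1.79 at 28 months.

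Msr1, the macrophage scavenger receptor for modified lipoproteins, was instead highest in liver, with 999 and 1524 units. Spleen read 144 units at 4 months and 407 at 28 months, and the 6 intestinal arrays read 196 to 347 units. Liver stood above every other array, by 2.35 ± 0.34 over spleen and 2.29 ± 0.28 over intestine (SE; limma adjusted p = 0.000491 and 0.000192). Spleen and intestine differed by -0.06 ± 0.28 (limma adjusted p = 0.866), and the distal colon, jejunum, spleen and ileum overlapped with their neighbours in the order of levels.

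The surface receptors that mark macrophage identity separated the organs. Clec4f, a C-type lectin used as a marker of Kupffer cells in mice, read 1208 and 2211 units in liver and 76.4 to 107 units, below the floor, on the other 8 arrays. It was at least 14.8-fold higher in liver than in spleen and intestine, where it was not measured (limma adjusted p = 4.32e-06 and 1.5e-06 on signals without the floor). Timd4, which binds phosphatidylserine on dying cells, read 214 and 360 units in liver against 2409 and 1934 units in spleen. In intestine it was above the floor on 1 of 6 arrays, the distal colon of 28 months at 114 units, and the others read 52.6 to 95.5 units. Liver minus spleen was -2.96 ± 0.35 (SE; limma adjusted p = 0.000169), and the ranges of the 2 organs did not overlap.

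Adgre1 was graded from spleen to liver to intestine. It read 1630 and 1724 units in spleen, 600 and 941 units in liver and 297 to 454 units on the 6 intestinal arrays. Liver minus spleen was -1.16 ± 0.22, liver minus intestine 1.11 ± 0.18 and spleen minus intestine 2.27 ± 0.18 (SE; limma adjusted p = 0.00241, 0.00108 and 2e-05). The ranges of the 3 organs did not overlap, whereas distal colon and jejunum overlapped each other.

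Cd68 and Lyz2 were highest in spleen. Cd68 read 1497 and 1695 units in spleen, 232 and 512 units in liver and 283 to 436 units in intestine. Liver and intestine differed by 0.01 ± 0.20 (SE; limma adjusted p = 0.984), and liver was below spleen by -2.21 ± 0.25 (limma adjusted p = 0.000118). Lyz2 read 22640 and 23381 units in spleen and 6078 to 9293 units on the intestinal arrays, but 1172 and 3449 units in liver. It was the only one of the 10 genes lower in liver than in intestine in the fit, by -1.96 ± 0.29 (limma adjusted p = 0.000628).

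Lyz2 has a close relative, Lyz1, made by Paneth cells of the small intestine, and arrays may not separate the pair. Of 3 probe sets annotated to Lyz1, 2 end in _x_at, the array's mark for probes that can read other transcripts. The brighter of these read 32192 and 33134 units in spleen, where no Paneth cells are found, and 37497 to 42910 units in jejunum and ileum. The remaining Lyz1 probe set read 40.5 to 50.1 units throughout, below the floor. How much of the Lyz2 signal in intestine came from Lyz1 was not tested.

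**Figure D2:**
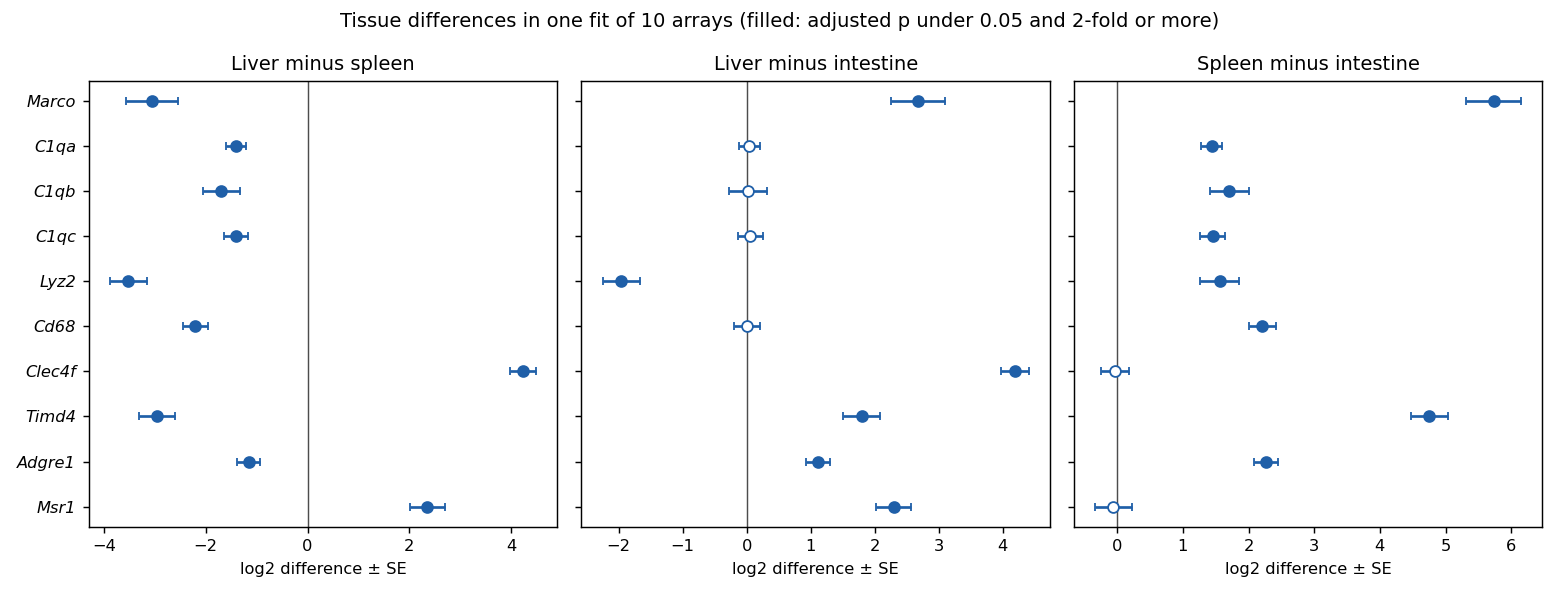
Log2 difference between organs for each gene, with its SE, from 1 limma fit of the 10 arrays. Filled points had an adjusted p under 0.05 and a difference of 2-fold or more, and open points did not. Liver minus spleen was below 0 for 8 genes and above 0 for Clec4f and Msr1 (2.35). Clec4f was below the floor in spleen and intestine, as were Marco and all but 1 array of Timd4 in intestine, so those points are drawn from signals under the floor.

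The comparison of 28 with 4 months asked how expression differs with age within each tissue. In liver all 10 genes were higher at 28 months, each by 1.5-fold or more, where 4% of the 12001 genes measured in liver were that much higher and 0.8% that much lower. At 2-fold, 4 of the 10 rose (Marco, C1qb, Lyz2 and Cd68) and 0 fell, with a background of 1.29% higher and 0.167% lower. The median log2 ratio of the 10 genes was 0.96, against -0.01 for all genes measured in liver. All 16 probe sets of these genes were above 0 in liver, 6 of them 2-fold or more. By gene, 5602 of the 12001 measured in liver were above 0. A fold is a description here, since 1 array per age allows no test. The genes were chosen with earlier results of these data known, so their counts against the background are not independent evidence.

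**Figure D3:**
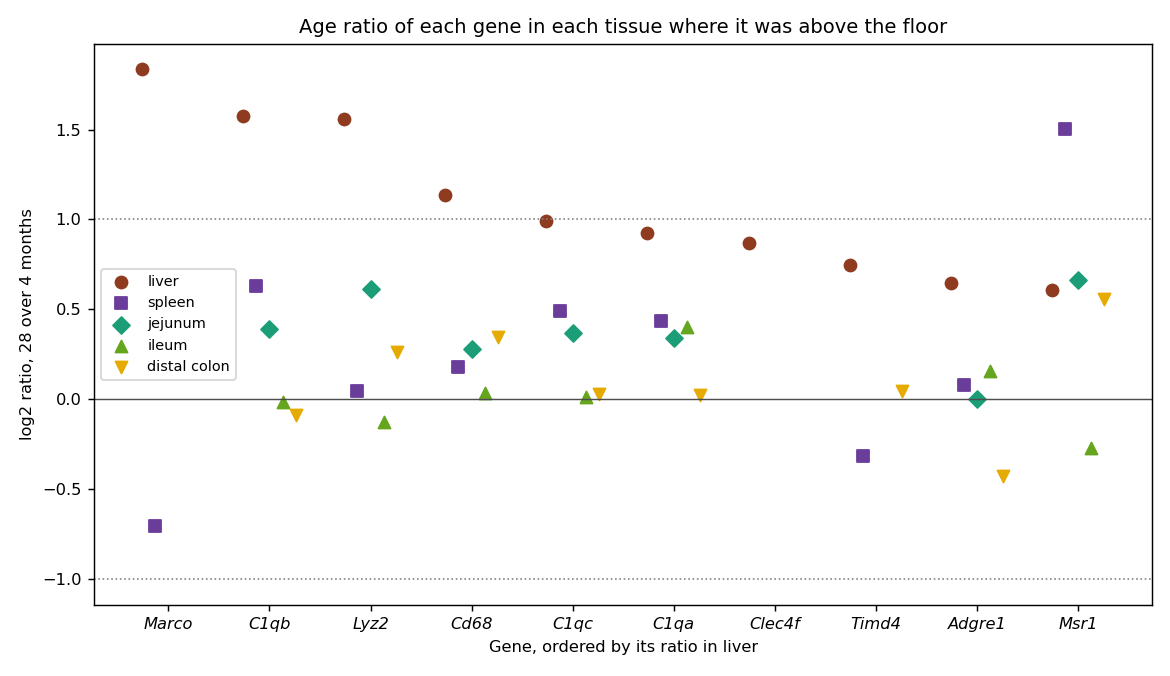
Log2 ratio of 28 over 4 months for each gene in the tissues where it was above the floor at either age, ordered by the ratio in liver, with dotted lines at 2-fold. Each point is the ratio of 2 arrays and has no error bar. Liver values run from 0.61 (Msr1) to 1.83 (Marco), and Marco in spleen stands at -0.70.

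Marco went from 215 to 765 units in liver, 3.56-fold, the largest ratio of the 10 by the brightest probe set. With the median of probe sets Marco had a log2 ratio of 1.21, below the 1.56 of Lyz2, and with the floor at percentile 75 it had 0.67, below the 1.58 of C1qb. C1qb was 2.98-fold higher, Lyz2 2.94-fold and Cd68 2.20-fold. C1qc and C1qa stood just short of 2-fold, at 1.99-fold and 1.90-fold. Clec4f, measured in liver alone, was 1.83-fold higher, Timd4 1.68-fold, Adgre1 1.57-fold and Msr1 1.53-fold. By the brightest probe sets Clec4f, Timd4 and Adgre1 had smaller ratios than Marco, C1qb and Lyz2, with no test of that difference. The order depends on the floor, since Clec4f had 0.83 or more under every alternative, above the 0.67 of Marco at percentile 75. For C1qb the 3 probe sets gave 1.08, 1.30 and 1.58 on the log2 scale, where the median SD between probe sets of a gene in liver was 0.12. The second probe set of Marco was dim, at 87.0 units at 4 months and 131 at 28 months, and gave a ratio of at least 0.25.

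In spleen the genes went in different directions. Msr1 was 2.83-fold higher at 28 months, from 144 to 407 units, the only member past 2-fold, where 0.528% of the 11925 genes measured in spleen rose that far and 0.411% fell. Its other measured probe sets gave smaller ratios, 1.53-fold and at least 1.59-fold, so the size is uncertain. C1qb was 1.55-fold higher, C1qc 1.41-fold and C1qa 1.35-fold. Marco was 1.63-fold lower, from 4302 to 2646 units, and its second probe set, at 471 and 239 units, had a ratio of -0.98. At 1.5-fold or more, 2 members were higher and 1 lower, with backgrounds of 3.19% and 1.95%. Timd4 was 1.25-fold lower, and Lyz2, Cd68 and Adgre1 had log2 ratios of 0.05, 0.18 and 0.08, of which that of Lyz2 became -0.03 under lowess. The median of the 9 members measured was 0.18, against 0.01 for all genes. Above 0 were 7 of these 9, and 6189 of the 11925 genes measured in spleen.

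In the intestine 0 members passed 2-fold in any segment. The backgrounds were 0.252% higher and 1.02% lower in jejunum, 0.888% and 1.66% in ileum, and 0.51% and 0.526% in distal colon. All 7 members measured in jejunum were above 0, where 6891 of all 12324 genes measured were. The median of these members was 0.37, against 0.03 for all genes. The largest ratios there were Msr1, 1.58-fold higher from 196 to 310 units, and Lyz2, 1.53-fold higher from 6078 to 9293 units, the 2 members at 1.5-fold or more, where 2.01% of genes were that much higher and 3.04% lower. Adgre1 read 343 and 344 units in jejunum, a ratio of 0.00, whose sign turned under scaling to equal medians, quantile normalisation and lowess.

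In ileum the 7 members measured lay between -0.27 (Msr1) and 0.40 (C1qa) with a median of 0.01, against 0.03 for all genes, and the ratios nearest 0 (C1qb, C1qc and Cd68) changed sign under other settings. In distal colon the 8 members measured lay between -0.43 (Adgre1, from 454 to 338 units) and 0.56 (Msr1, from 235 to 347 units) with a median of 0.04, against 0.03. In neither segment did any member reach 1.5-fold, where 5.22% of genes were that much higher and 4.17% lower in ileum, and 2.57% and 2.35% in distal colon. Of all genes measured, 6737 of 12504 were above 0 in ileum and 6846 of 12360 in distal colon. Smooth muscle genes, which mark the muscle layers of the wall, had a median ratio of 0.77 in ileum (6 of 6 above 0) and -0.49 in distal colon (0 of 6). The part of this shift in the intestinal ratios was not tested.

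Taken over the 5 tissues in the limma fit, the age term called 0 of the 10 members and 0% of all 13608 genes at an adjusted p under 0.05. At an unadjusted p under 0.05 it held 1042 genes, 4 of the members among them (C1qa, C1qc, Cd68 and Msr1). The age coefficients of the 10 members were all above 0, from 0.06 ± 0.16 for Clec4f to 0.61 ± 0.21 for Msr1 (SE), with a median of 0.39 against 0.02 for all genes. For Clec4f this averages liver with 4 tissues below the floor, and Marco and Timd4 also include segments below it, so these coefficients rest in part on unmeasured ratios. C1qa had 0.43 ± 0.13 and was higher at 28 months in 5 of 5 tissues (limma adjusted p = 0.588). In distal colon its ratio was only 0.03, the same as the median of all genes there. C1qc and Cd68 were also higher in 5 of 5 tissues. In this age term the tissues stand in for replicates, so its SE and p-values hold no spread between mice. For the 3 intestinal segments age also cannot be told apart from the other run of array numbers.

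Whether the liver ratio exceeded that of the other tissues was tested by limma on the 5 log2 ratios, a test chosen after the data had been seen, in which the other 4 tissues give the spread. It called 0 of the 10 members, where 0.0588% of genes were called higher and 0% lower. The liver ratio of Marco exceeded the mean of the others by 2.09 ± 0.30 (SE; limma adjusted p = 0.165), but Marco was below the floor at both ages in the 3 intestinal segments, so that mean and its spread rest largely on unmeasured ratios. C1qb, Lyz2 and Clec4f had differences of 1.35 ± 0.32, 1.36 ± 0.31 and 1.02 ± 0.20 (limma adjusted p = 0.729, 0.604 and 0.466), and for Clec4f the other tissues were below the floor. Unadjusted p was under 0.05 for 8 of the 10 members and for 427 of the 13608 genes, and for Marco and Clec4f it shares the limit just given. The same test for spleen called 0 members, with 0.0147% of genes higher and 0.118% lower, and gave Marco -1.08 ± 0.77 and Msr1 1.11 ± 0.38 (limma adjusted p = 0.755 and 0.661), where the value for Marco again rests on the 3 unmeasured segments. The difference in age ratio between organs was therefore not shown for any member.

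**Figure D4:**
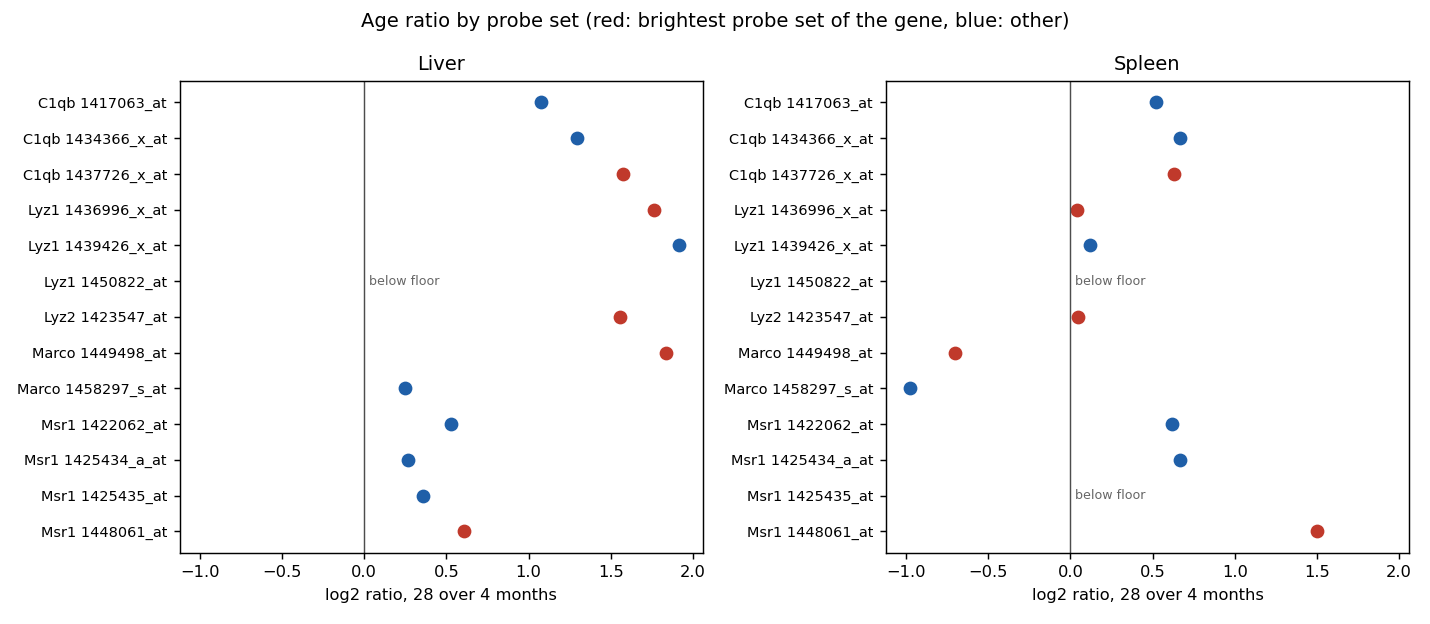
Log2 ratio of 28 over 4 months for each probe set of C1qb, Lyz1, Lyz2, Marco and Msr1 in liver and spleen, with the brightest probe set of each gene in red. Probe sets below the floor at both ages carry no point. All measured probe sets are above 0 in liver, and both of Marco are below 0 in spleen.

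Other macrophage genes gave a frame for these values. Of 16 pan-macrophage genes measured in liver, 15 were above 0 at 28 months and 2 rose 2-fold, with a median of 0.76. They were Mpeg1, a pore-forming protein of phagosomes, from 1983 to 4067 units, and Ctss, a lysosomal protease, from 2350 to 4749 units. In spleen 11 of 17 were above 0 with a median of 0.08 and 0 past 2-fold. Csf1r was 1.65-fold higher in liver (3883 to 6408 units) and read 20847 and 20009 units in spleen.

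Other genes listed for Kupffer cells did not all move in the same direction. Of 10 measured in liver 7 were above 0 and 0 passed 2-fold, with a median of 0.38. Cd5l, a secreted scavenger protein, went from 2594 to 5185 units, just short of 2-fold, and Vsig4, a complement receptor of Kupffer cells, was 1.93-fold higher, from 1989 to 3844 units. Cd163, the haemoglobin scavenger receptor, read 854 and 756 units. Also below 0 were Id3 (1755 and 1421 units) and Slc40a1 (9370 and 8695 units). Both were above the floor in every tissue and so are not particular to Kupffer cells here. The same holds for Il18bp, Fcna and Nr1h3 of this list, which were above 0 in liver. Like Clec4f, Vsig4 was below the floor on both spleen arrays, while Cd5l read 3486 and 4949 units there. Liver minus spleen was -0.18 ± 0.28 for Cd5l (SE; limma adjusted p = 0.606).

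Genes of splenic macrophage subsets had a median ratio of 1.10 over 7 measured in liver, 5 of them above 0 and 4 past 2-fold. Sirpa, an inhibitory receptor of myeloid cells, was 2.27-fold higher, Treml4 2.25-fold, Vcam1, an adhesion protein of red pulp macrophages, 2.16-fold, and Hmox1, which degrades haem, read 356 and 764 units. The 2 below 0 were Siglec1, a sialic acid receptor of marginal metallophilic macrophages (192 and 153 units), and Slc40a1, the iron exporter (9370 and 8695 units). In spleen, 0 of 8 passed 2-fold (median -0.11), and Cd209b, a lectin of marginal zone macrophages, went from 325 to 192 units, a ratio of -0.76, while Siglec1 read 135 and 165 units. Siglec1 stayed near the floor at 125 to 192 units on all 10 arrays, so its ratios are limited by signal over background. Its liver minus spleen difference was 0.20 ± 0.17 (SE; limma adjusted p = 0.328). Siglec1 and Slc40a1 were named after their values were seen. Spic, the transcription factor of red pulp macrophages, read 2047 and 1847 units in spleen and 92.0 and 122 units in liver.

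The list of C1q partners in the classical pathway, which also holds the receptor genes C3ar1 and Itgax, showed little change in liver. All 7 measured there were above 0, with a median of 0.16 and 0 past 2-fold. C1ra, a protease of the C1 complex, read 3955 and 4324 units in liver, and Serping1, the C1 inhibitor, read 14906 and 18286 units. Unlike C1qa, C1qb and C1qc, C1ra was higher in liver than in spleen, by 2.68 ± 0.16 (SE; limma adjusted p = 4.23e-06). Of 9 lysosomal genes measured in liver, 7 were above 0 with a median of 0.17, and Ctss alone passed 2-fold.

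Markers of other cell types that express some of these genes also differed with age. Of 10 granulocyte genes 9 were above 0 in liver, 5 past 2-fold, with a median of 0.73, and 10 of 10 in spleen, 8 past 2-fold, with a median of 1.47. Their summed signal went from 1102 to 12755 units in liver and from 16979 to 43964 units in spleen, and from 962 to 1072 units in jejunum. These sums include signals below the floor, such as Prtn3 at 80.6 units in liver at 4 months. In jejunum 7 of the 10 genes were below it at both ages. The liver sum at 4 months and both jejunum sums therefore rest in part on unmeasured signals. Lcn2, which hepatocytes also make, went from 188 to 9366 units in liver and made up most of the liver sum at 28 months. S100a8, a calcium-binding protein of neutrophils, went from 139 to 864 units in liver and from 7194 to 16547 in spleen, while Lyz2, which neutrophils and monocytes express too, was 2.94-fold higher in liver and 1.03-fold in spleen. Of 5 monocyte genes measured in liver 5 were above 0, with a median of 0.47 and 0 past 2-fold. Plac8 was 1.81-fold higher, from 728 to 1322 units, and Ccr2, a receptor of recruited monocytes, read 177 and 183 units. Chil3 (40.2 and 185 units) and S100a4 (78.8 and 153 units) were below the floor at 4 months. Their ratios are therefore lower bounds, and the count past 2-fold may be too low. Dendritic cell genes had medians of 0.05 in liver and -0.54 in spleen, where Cd209a fell 2.44-fold. Hepatocyte genes had a median of -0.01 in liver and liver endothelium genes one of 0.13, with 0 past 2-fold in each. The part of these cells in the ratios of the 10 genes was not tested.

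**Figure D5:**
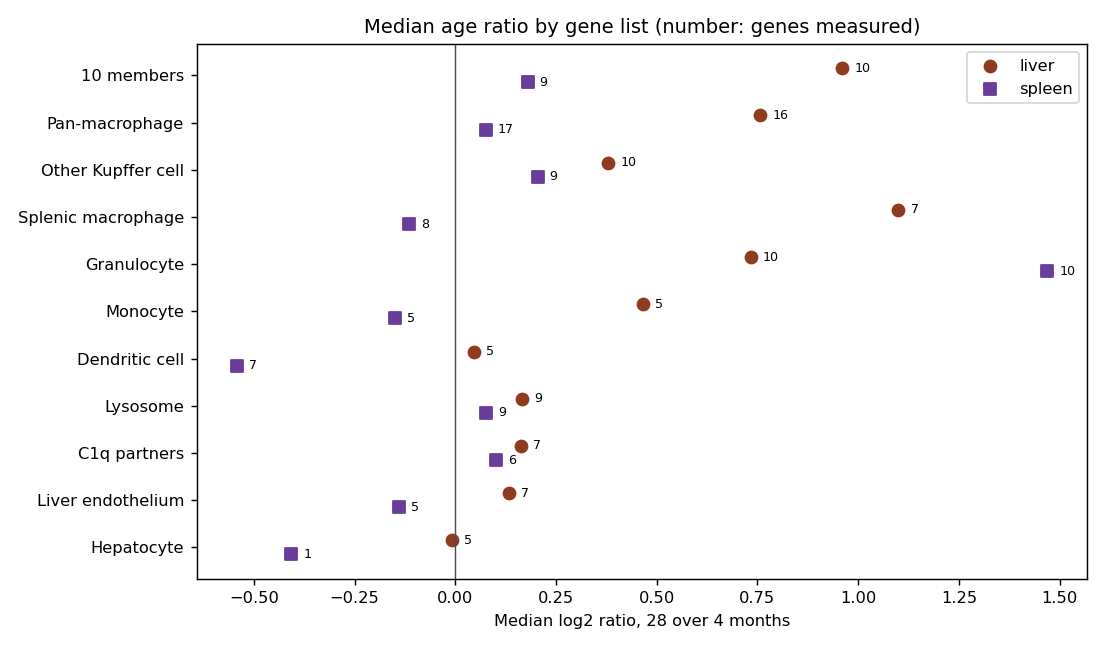
Median log2 ratio of 28 over 4 months for 11 gene lists in liver (circles) and spleen (squares), with the number of genes measured beside each point. The lists share some genes and no test was made on them. The list of C1q partners also holds the receptor genes C3ar1 and Itgax. The 10 genes had medians of 0.96 in liver and 0.18 in spleen, and the granulocyte list had 0.73 and 1.47.

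Genes outside the 10 with the most similar pattern over the 10 arrays were found by Pearson correlation of log2 signals raised to the floor, a description that rests mainly on differences between tissues. Marco was most like Treml4 (r = 0.99) and Hmox1 (r = 0.99), and Timd4 most like Stap1 (r = 0.998) and Treml4 (r = 0.996). C1qa was most like Phf11d (r = 0.99), while Fcgr3, an antibody receptor of myeloid cells, was among the closest of C1qa, C1qb and C1qc (r = 0.97, 0.98 and 0.98). Fcgr3 read 368 and 802 units in liver and 1700 and 2399 units in spleen. C1qc was most like Ms4a6c (r = 0.98), which read 219 and 575 units in liver. Cd68 was most like Plek (r = 0.99), Adgre1 most like Hmox1 (r = 0.99), Lyz2 most like Glipr1 (r = 0.98) and Msr1 most like Elk1 (r = 0.96), which stayed near the floor at 83.1 to 159 units. For Clec4f the closest genes, Lhx6 and Paqr3, were dim in liver and below the floor on the other 8 arrays, so their r of 1.0 says only that they share that floor.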

How the data were processed

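The authors deposited log2 signals for every probe set of each array, taken here as already normalised because the array medians lay close together. The submitters' processing notes name MAS5 and affy without version or role, and no further account of the normalisation was found in the sources used here. Detection calls and individual mice were not analysed here.

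Signals were taken out of the log and scaled so that the mean after trimming 2% at each end was 500 units (factors 2.42 to 2.57). Of 45101 probe sets, 34958 named 1 gene, 932 several and 9211 none in the platform annotation. Age ratios used signals raised to the floor, and a gene counted as measured when above the floor at either age. The limma 3.58.1 fit (R 4.3.3) used log2 signals without the floor, tissue and age as terms, and the 13608 genes above the floor on at least 2 arrays, with Benjamini-Hochberg adjustment. The fit was tested on simulated data.

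The 10 members and the 20 companion lists were chosen with earlier results of these data known. From each list, up to 3 genes per tissue with the largest ratio and a brighter signal of at least 2 floors could be named, beside label markers and the 2 genes most like each member. Csf1r, Cd163, Vsig4, Cd5l, Spic, C1ra, Hmox1, Ccr2 and S100a8 were in part named outside that rule, after their values were seen. The same holds for Chil3, S100a4, Id3, Fcna, Nr1h3, Mertk and Tyro3 in liver, and for C3ar1 and Itgax. Alternatives were other floors (percentile 25, percentile 75, or none with 16 units added), scalings, probe set choices, fold thresholds of 1.5 and 3, filters, and leaving out tissues. Python 3.11.15 with numpy 2.4.6, pandas 2.3.3, statsmodels 0.14.6 (lowess span 0.3) and matplotlib 3.10.9 was used.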

Additional observations from a re-analysis of the deposited data

Results flagged for a closer look

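Marco had age ratios of opposite sign in the 2 organs where it was measured, 1.83 on the log2 scale in liver and -0.70 in spleen, each past 1.5-fold. With 1 array per age this difference was not tested within the pair, and limma on the 5 tissue ratios called neither organ (adjusted p = 0.165 for liver and 0.755 for spleen), in a comparison where the 3 intestinal ratios of Marco were not measured. Both probe sets moved up in liver and down in spleen.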

How the results depend on the processing

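The number of members past 2-fold in liver, 4, became 2 with the floor at percentile 75 (C1qb and Lyz2), 5 with equal medians and with lowess (C1qc added), 10 at 1.5-fold and 1 at 3-fold. In spleen 1 became 0 with the floor at percentile 75, 0 with the median of probe sets, 0 at 3-fold and 3 at 1.5-fold, and in jejunum 0 became 2 at 1.5-fold. A higher floor leaves less of a dim gene's change, so Marco in liver ranged from 0.67 to 1.89 and Cd68 from 0.09 to 1.19 over the alternatives. No member past 2-fold changed sign under any alternative run. In liver every member measured was above 0 under all 8 of them. The tissue fit called 10, 6 and 8 members for liver against spleen, liver against intestine and spleen against intestine, and 9, 5 and 7 without probe sets that can read several transcripts, which leaves out Adgre1. It gave the main counts under each other alternative run, including fits without each tissue. The age term called 0 members and 0 genes in all fits. In the test of liver against the other tissues 8 genes were called, and 14 with the floor and 5 with the median of probe sets or without shared-transcript probe sets, and for spleen 18, and 30 with the floor, with 0 members in each. No paired analysis was possible because the labels give no replicate numbers and each group held 1 array. Tissue was a term of the age fit, which compares the ages within tissues. Genes near the floor, such as Timd4 in intestine, are limited by signal over background.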

Other observations

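Genes of dead cell recognition outside the 10 differed among themselves in liver. Gas6, the bridging ligand of the TAM receptors, rose 2.31-fold, from 721 to 1664 units, its receptor gene Axl was 1.81-fold higher (220 to 398 units) and Pros1, the second ligand, 1.61-fold (1314 to 2119 units). The other TAM receptor genes differed less, Mertk with 893 and 971 units and Tyro3 with 136 and 123 units. Of the 10 genes of this list measured in liver, 7 were above 0, with a median of 0.27. In spleen 3 of 9 were above 0, with a median of -0.09.

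Among genes of lipid-laden macrophages, 6 of 7 were above 0 in spleen, with a median of 0.31 and 0 past 2-fold. Gpnmb went from 150 to 296 units, 1.97-fold, and Fabp5, a fatty acid binding protein, from 4970 to 9656 units, 1.94-fold. In liver the same list had a median of 0.18 and was led by Cd9 at 1.36-fold. Lyve1, a hyaluronan receptor of sinusoidal and lymphatic endothelium, went from 952 to 501 units in liver, 1.90-fold lower, while Stab2, a scavenger receptor of the same sinusoidal cells, read 1352 and 1517 units. Chil3, a chitinase-like protein of monocytes and granulocyte precursors, rose 2.62-fold in spleen, from 1061 to 2776 units.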
